A study of Xenopus laevis with 6 samples.

Results

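The anterior gradient genes ag1 and agr2 of *Xenopus laevis* were examined in whole embryos raised in a saline medium of higher or lower strength. This frog is allotetraploid, so a gene is often kept as a pair of homeologs, named L and S after the longer and shorter chromosome they sit on. All 4 copies, ag1.L, ag1.S, agr2.L and agr2.S, were present in the count table of 42638 genes. They were chosen by gene name, and the names were picked with the counts of these samples and the difference between the media already known, so the values below describe the 4 genes and do not test why they were picked. All 4 copies passed the filter on low counts, which kept 28075 genes.

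The embryos were wild type, fertilized in vitro and kept at 14 °C in MMR, a buffered frog saline (Marc's Modified Ringer's). All started in 0.1X MMR. One group was moved to 0.75X MMR at stage 9, and the other stayed where it was. RNA was taken after 7 days, at stage 35, from 3 pools of 10 embryos for each medium. The study's methods describe the replicates of all its experiments as independent samples from independent batches, and which pools of the media share a batch is not given in the sources used here. The tests measure the spread between these pools. RNA depleted of ribosomal RNA was sequenced with single-end reads, and the counts of a pool added up to between 5024957 and 7045215. Marker lists of several tissues were present in every pool. The summed level of muscle markers was 7940 to 12200 CPM (counts scaled to an equal library total) in 0.75X MMR and 9850 to 11600 CPM in 0.1X MMR. That of neural markers was 1260 to 1290 CPM in 0.75X MMR and 1260 to 1310 CPM in 0.1X MMR.

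Anterior gradient proteins are small members of the protein disulfide isomerase family, which help secreted proteins to fold in the endoplasmic reticulum. In *Xenopus* both ag1 (also known as XAG) and agr2 are classical markers of the cement gland, a mucus-secreting organ on the head of the larva that sticks it to surfaces before it can swim and feed. In this frog agr2 can induce cement gland when it is expressed ectopically, and in mice its ortholog is needed by goblet cells of the gut to make the mucin Muc2. The homeobox genes otx2, crx (the frog's otx5) and pitx1 act upstream of the cement gland in *Xenopus*.

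In the RefSeq annotation of the assembly Xenopus_laevis_v10.1, ag1.L lies on chromosome 9_10L from 82456155 to 82463596 and ag1.S on chromosome 9_10S from 72395624 to 72403142. The gene agr2.L lies on chromosome 6L from 38033073 to 38038018, 32676 bp from its family relative agr3.L, and agr2.S lies on chromosome 6S from 30062601 to 30069427. All 4 are annotated as protein-coding. RefSeq lists older aliases that overlap between ag1 and agr2, so the genes were matched by their current symbols.

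All 4 copies had lower mean levels in 0.75X MMR than in 0.1X MMR, at 63.2% (ag1.L), 65.7% (ag1.S), 75.1% (agr2.L) and 83.9% (agr2.S) of the level in 0.1X MMR by edgeR's fold change. None of these differences passed a false discovery rate (FDR) of 0.05 over all tested genes by edgeR's quasi-likelihood test. In the same test 5 genes, or 0.0178% of those tested, passed. All 4 copies had an unadjusted p under 0.05, where 2.25% of tested genes had such a p and were lower in 0.75X MMR. By DESeq2, 1 of the 4 copies (ag1.S) passed the FDR limit, as did 0.0463% of all genes with an adjusted p, and 3 had an unadjusted p under 0.05 and were lower, as did 0.794% of all genes. By limma-voom 0 of the 4 passed, beside 0.0178% of all genes, and 4 had an unadjusted p under 0.05 and were lower, beside 2.32% of all genes. In whole embryos, fewer cells of a type and less RNA per cell cannot be told apart.

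The level of ag1.L was 91.7, 48.5 and 66.4 CPM in samples 1 to 3 of 0.75X MMR and 124, 106 and 97 CPM in samples 1 to 3 of 0.1X MMR. The highest pool in 0.75X MMR thus stood just under the lowest in 0.1X MMR, and the pools in 0.75X MMR were spread more widely. The means were 68.9 ± 21.7 CPM in 0.75X MMR and 109 ± 13.9 CPM in 0.1X MMR (SD, n = 3 each). On the log2 scale the difference was -0.66 ± 0.17 (SE; adjusted p = 0.566 by edgeR), with a 95% confidence interval of -1.06 to -0.34 by limma-voom.

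The S copy of the same gene had a smaller spread. For ag1.S the samples 1 to 3 of 0.75X MMR had 73.4, 57.1 and 69.8 CPM, and those of 0.1X MMR had 111, 105 and 88.4 CPM. The pools of the media did not overlap. The means were 66.7 ± 8.59 CPM in 0.75X MMR and 101 ± 11.6 CPM in 0.1X MMR (SD, n = 3 each), or -0.61 ± 0.11 on the log2 scale (SE; adjusted p = 0.125 by edgeR; interval -0.84 to -0.37). By p value ag1.S was the 18th of the 28075 tested genes. The difference behind this rank was known when the genes were picked, so the rank is no further evidence. Its adjusted p was 0.00542 by DESeq2, the only one of the 4 copies under 0.05 there, and 0.137 by limma-voom.

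The level of agr2.L was 48.7, 37.1 and 39.8 CPM in samples 1 to 3 of 0.75X MMR and 56.6, 49 and 62.3 CPM in samples 1 to 3 of 0.1X MMR. The media were barely apart, with sample 1 of 0.75X MMR just under sample 2 of 0.1X MMR. The means were 41.9 ± 6.09 CPM in 0.75X MMR and 56 ± 6.68 CPM in 0.1X MMR (SD, n = 3 each), or -0.41 ± 0.12 on the log2 scale (SE; adjusted p = 0.755 by edgeR; interval -0.67 to -0.16).

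For agr2.S the pools overlapped. Its level was 47.7, 42.5 and 41.3 CPM in samples 1 to 3 of 0.75X MMR and 56.4, 46.9 and 53.3 CPM in samples 1 to 3 of 0.1X MMR, so that sample 2 of 0.1X MMR lay below sample 1 of 0.75X MMR. The means were 43.8 ± 3.41 CPM in 0.75X MMR and 52.2 ± 4.88 CPM in 0.1X MMR (SD, n = 3 each), or -0.25 ± 0.10 on the log2 scale (SE; adjusted p = 1 by edgeR; interval -0.47 to -0.04). In all, 3 of the 4 copies had every pool of 0.75X MMR below every pool of 0.1X MMR, and so had 4.97% of tested genes.

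**Figure D1:**
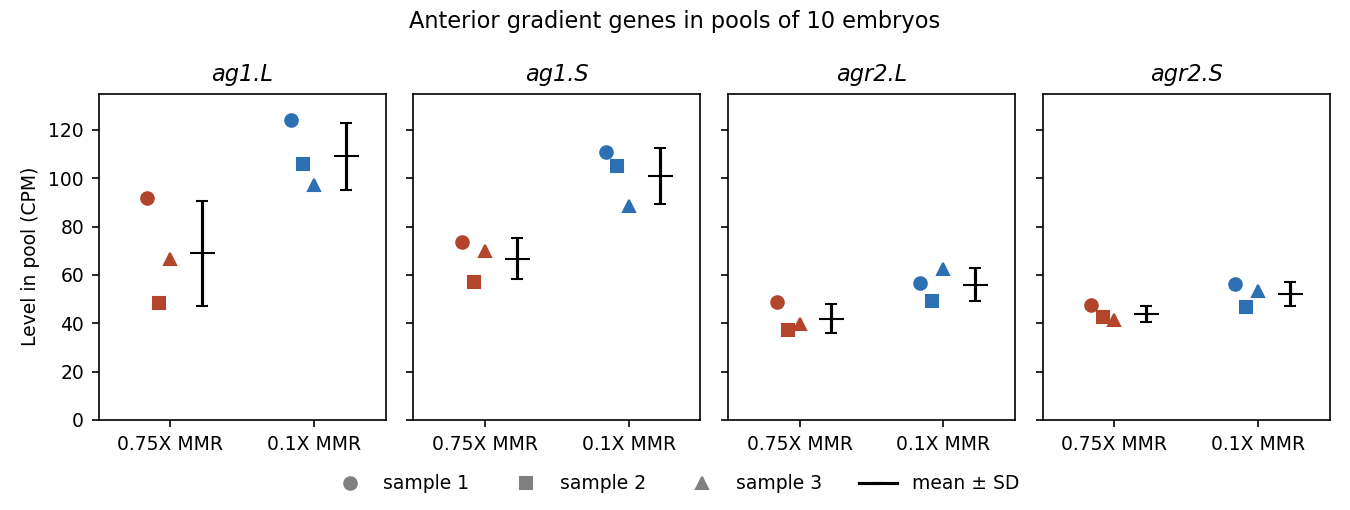
Level of each copy in CPM (vertical axis, from 0) in each pool of 10 embryos, with 0.75X MMR on the left of each panel and 0.1X MMR on the right. Symbols give the sample number and the bars the mean ± SD of 3 pools; the media overlap for agr2.S, and the widest spread is that of ag1.L in 0.75X MMR, from 48.5 to 91.7 CPM.

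The spread between pools differed among the copies. Within 0.75X MMR the coefficient of variation was 31.5% for ag1.L, 12.9% for ag1.S, 14.5% for agr2.L and 7.79% for agr2.S. Within 0.1X MMR it was 12.8% for ag1.L, 11.4% for ag1.S, 11.9% for agr2.L and 9.35% for agr2.S. The biological coefficient of variation that edgeR estimated was 14.9% for ag1.L, higher than in 79.2% of tested genes, and 7.9% for agr2.S, against a median of 9.33% over all tested genes. The pools that stood high or low were partly the same for different copies. In 0.75X MMR sample 1 was the highest pool for all 4 copies, and sample 2 was the lowest for ag1.L, ag1.S and agr2.L, but not for agr2.S. In 0.1X MMR sample 1 was the highest for ag1.L, ag1.S and agr2.S and sample 3 for agr2.L.

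In these 6 samples the copies of one gene had higher correlations than copies of different genes, and this gap was not tested. After the mean of each medium was taken off, the log2 CPM of ag1.L and ag1.S had a Pearson's r of 0.87 over the 6 samples, and agr2.L and agr2.S one of 0.80. Between an ag1 and an agr2 copy r was 0.19 to 0.63. These are descriptions over 6 samples that share library depth within each pool, and for agr2 the copies share reads as well.

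Reads that could have come from more than one gene were divided by the authors' estimation with RSEM, and the fractions of the deposited counts show with which genes each copy shared them. The counts of ag1.S were whole numbers in all 6 samples. Those of agr2.L and agr2.S had fractions in 5 of 6 samples, and their sum was whole in every sample (tolerance 0.011), for example 294.72 and 288.28 in sample 1 of 0.75X MMR, which add up to 583. No other gene of the table completed the counts of either copy in all 6 samples. So the agr2 copies shared reads with each other, and the division between them is an estimate.

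The counts of ag1.L had fractions in all 6 samples, and they were completed to whole numbers not by ag1.S but by LOC121397883, again the only gene of the table for which this was so. This locus is annotated as a long noncoding RNA on chromosome 9_10L from 82452528 to 82463711, a span that holds all of ag1.L. It was given 5.42, 5.32 and 8.46 counts in samples 1 to 3 of 0.75X MMR and 4.18, 10.84 and 5.26 counts in samples 1 to 3 of 0.1X MMR, between 0.477% and 2.04% of the reads of the pair. The strand setting of the counting is not given in the sources used here, so reads of these overlapping genes cannot be told apart with certainty. No sharing of reads between ag1.L and ag1.S was visible in the fractions.

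To ask whether one copy carried the difference between the media, the share of the L copy was computed within each sample. It was not corrected for transcript length, so it compares samples and not the levels of the copies. For ag1 the L copy took 55.5% (95% Wilson interval 52.5 to 58.6), 45.9% (42 to 50) and 48.8% (45.4 to 52.2) of the counts in samples 1 to 3 of 0.75X MMR. In samples 1 to 3 of 0.1X MMR it took 52.9% (50.5 to 55.3), 50.1% (47.4 to 52.8) and 52.3% (49.1 to 55.5). The intervals cover counting error only. Samples 1 and 2 of 0.75X MMR lay on either side of all others, and their intervals did not touch. The mean share was 50.1% ± 4.93 in 0.75X MMR and 51.8% ± 1.49 in 0.1X MMR (SD, n = 3 each; two-sided exact permutation test, p = 0.6, where 0.1 is the smallest p for 3 against 3). Without sample 2 of 0.75X MMR the difference of -1.68 percentage points turned to 0.386.

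For agr2 the L share was 50.6%, 46.6% and 49.1% in samples 1 to 3 of 0.75X MMR and 50.1%, 51.1% and 53.9% in samples 1 to 3 of 0.1X MMR, with intervals that reached from 42 to 57.9 over all 6. These intervals leave out the error of the estimated division of shared reads between the agr2 copies. The means were 48.8% ± 1.98 in 0.75X MMR and 51.7% ± 1.99 in 0.1X MMR (SD, n = 3 each; exact permutation test, p = 0.2). In both genes the pools of the media overlapped in this share. The exact test cannot give a p under 0.1 for 3 against 3. It could therefore not have shown a shift of the balance between the copies at a p under 0.05.

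**Figure D2:**
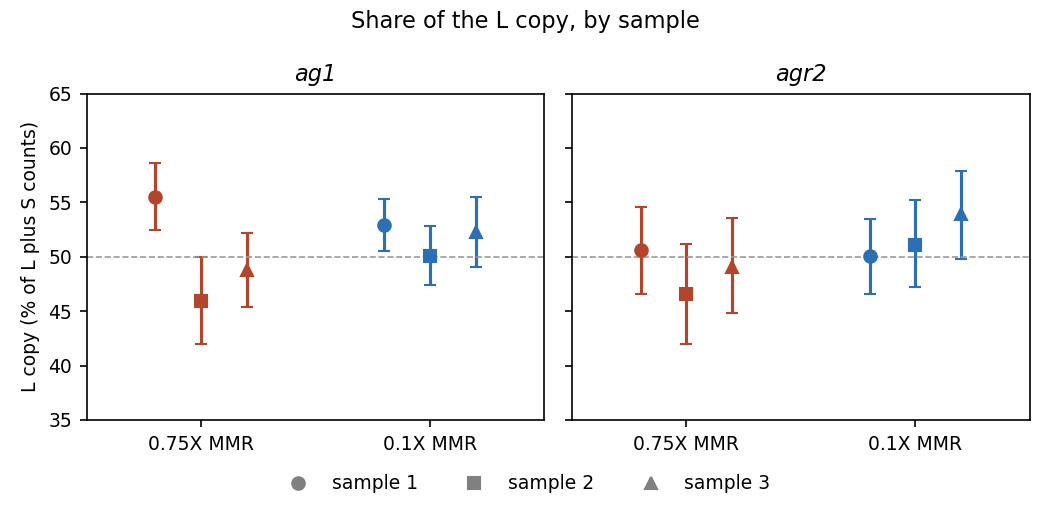
Counts of the L copy as a percent of L plus S counts (vertical axis, 35 to 65%) in each sample, for ag1 and agr2, with 0.75X MMR left of 0.1X MMR. Bars are 95% Wilson intervals of counting error, which for agr2 leave out the error of the estimated division of shared reads. The dashed line marks equal counts. The shares range from 45.9% to 55.5% for ag1 and from 46.6% to 53.9% for agr2.

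Adding the copies removes the division of reads between them. With L and S counts added for every gene of the table, 21236 genes were tested. The summed level of ag1 was 165, 106 and 136 CPM in samples 1 to 3 of 0.75X MMR and 235, 211 and 185 CPM in samples 1 to 3 of 0.1X MMR, with no overlap. The share of the 21236 genes without overlap was not computed for the added copies. The log2 difference was -0.63 ± 0.14 (SE; adjusted p = 0.293 by edgeR). The summed level of agr2 was 96.4, 79.6 and 81 CPM for samples 1 to 3 of 0.75X MMR and 113, 95.9 and 116 CPM for those of 0.1X MMR, where sample 1 of 0.75X MMR lay above sample 2 of 0.1X MMR. The log2 difference was -0.34 ± 0.10 (SE; adjusted p = 0.847 by edgeR). In this fit 2 genes passed the FDR limit.

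Among 6904 genes with both copies tested, both were lower in 0.75X MMR in 28.9%. Both were lower with an unadjusted p under 0.05 in 24 genes, or 0.348%, and ag1 and agr2 were among these 24. Since the genes were picked with these values known, this places them among the homeolog pairs and is no further evidence.

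**Figure D3:**
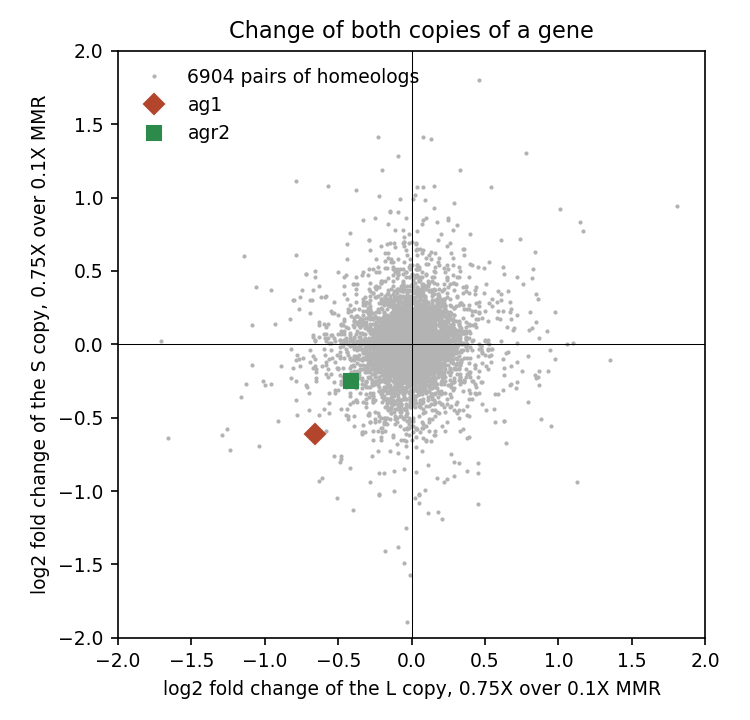
Log2 fold change of the L copy (horizontal axis) against that of the S copy (vertical axis), 0.75X MMR over 0.1X MMR by edgeR, for 6904 genes with both copies tested; 1 gene lies outside the axes. The red diamond is ag1, at -0.66 (L) and -0.61 (S), and the green square is agr2, at -0.41 (L) and -0.25 (S).

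Whether ag1 differed between the media by more than agr2 was asked with a ratio within each sample. The log2 ratio of ag1 to agr2 counts (copies added) was 0.78, 0.41 and 0.75 in samples 1 to 3 of 0.75X MMR and 1.06, 1.14 and 0.68 in samples 1 to 3 of 0.1X MMR. Sample 3 of 0.1X MMR lay inside the range of 0.75X MMR. The mean was 0.64 ± 0.21 in 0.75X MMR and 0.96 ± 0.24 in 0.1X MMR (SD, n = 3 each), a difference of -0.31 (two-sided exact permutation test, p = 0.3). The smallest p of this test is 0.1 for 3 against 3. It could therefore not have shown an unequal difference of the genes at a p under 0.05.

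The adjusted log2 CPM values that the authors deposited, from which they had removed surrogate variables, gave differences of nearly the same size. For ag1.L the pools of 0.75X MMR stood at 6.35, 6.13 and 5.94, and those of 0.1X MMR at 6.98, 6.89 and 6.59. For agr2.S the pools of 0.75X MMR stood at 5.45, 5.44 and 5.40 and those of 0.1X MMR at 5.79, 5.63 and 5.60, so that the overlap seen in the counts was gone. The mean differences were -0.68 (ag1.L), -0.60 (ag1.S), -0.40 (agr2.L) and -0.24 (agr2.S). Within a medium the range of the pools was narrower after the adjustment in 7 of 8 cases. For ag1.L it was 0.40 after the adjustment in both media, where the unadjusted range had been 0.91 (0.75X MMR) and 0.36 (0.1X MMR). For agr2.L the adjusted range was 0.03 (0.75X MMR) and 0.04 (0.1X MMR). Removing surrogate variables takes out variation between pools. Narrower ranges and a lost overlap can therefore follow from the adjustment itself and are no separate evidence. The share of all genes with such a change was not computed.

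The relatives of ag1 and agr2 in the same thioredoxin-like family were tested in 3 copies, and 0 of them had an unadjusted p under 0.05 by edgeR or passed the FDR limit by DESeq2 or limma-voom. Of all tested genes 4.39% had such a p by edgeR, so a count of 0 among 3 copies says little. The level of agr3.L, the neighbour of agr2.L on chromosome 6L, was low, at 3.08 ± 0.391 CPM in 0.75X MMR and 1.84 ± 0.885 CPM in 0.1X MMR (SD, n = 3 each), or 0.69 ± 0.36 on the log2 scale (SE; adjusted p = 1 by edgeR). Its counts were 19, 15 and 21 in 0.75X MMR against 20, 9 and 6 in 0.1X MMR. The ubiquitous family member txndc12 had log2 fold changes of -0.11 (L copy, standard error 0.10) and -0.05 (S copy, standard error 0.13). The nearest protein-coding genes on either side of the 4 copies, chosen for position alone, had log2 fold changes of -0.08 (asb1.L) and -0.01 (traf3ip1.L) beside ag1.L and of -0.03 (hdac4.S) and -0.05 (traf3ip1.S) beside ag1.S. Beside the agr2 copies they were 0.13 (tspan13.L), 0.06 (tspan13.S) and -0.05 (ahr.S), and 0.69 for agr3.L, given above as a relative. None of these neighbours had an unadjusted p under 0.05, and the standard errors of asb1.L (0.40) and traf3ip1.S (0.35), which had few counts, were larger than that of ag1.L.

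**Figure D4:**
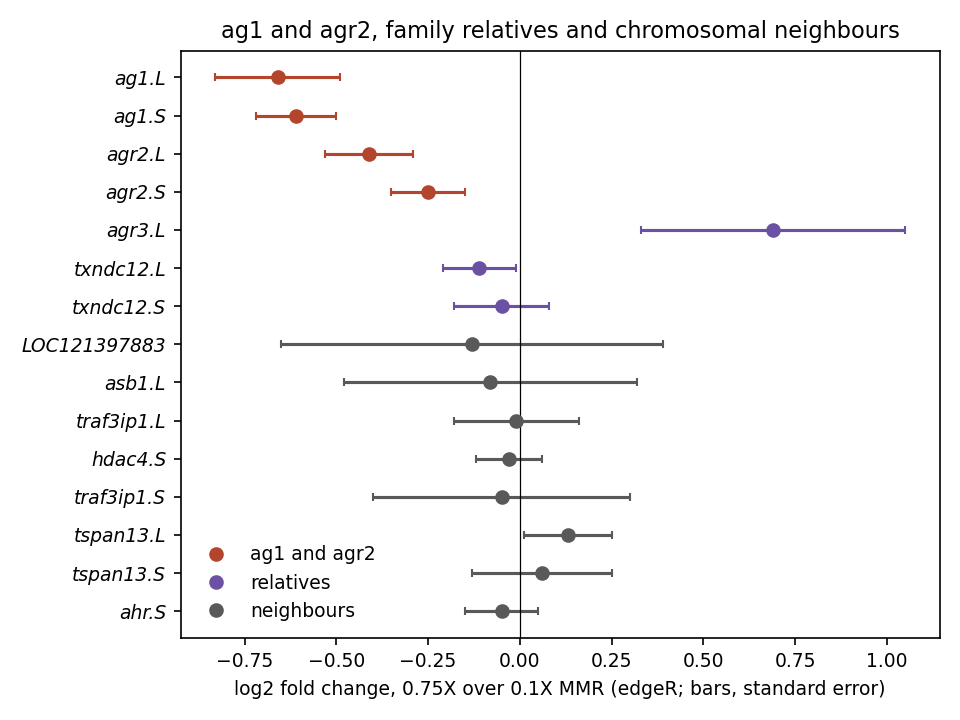
Log2 fold change by edgeR (horizontal axis, 0.75X MMR over 0.1X MMR; bars are standard errors) of ag1 and agr2 (red), of family relatives (purple) and of the overlapping or nearest annotated genes (grey). The 4 copies of ag1 and agr2 lie between -0.66 and -0.25, and the grey genes between -0.13 and 0.13. The purple agr3.L, also the nearest gene after agr2.L, lies at 0.69.

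Regulators of the cement gland and of anterior ectoderm were read as a list of 15 names, of which 24 copies were tested. Of these 0 passed the FDR limit by edgeR, DESeq2 or limma-voom, and 0 had an unadjusted p under 0.05 by edgeR. Of all genes 0.0178%, 0.0463% and 0.0178% passed by these tools, and 4.39% had such a p by edgeR. Counts of 0 among 24 copies therefore say little. In 0.75X MMR 9 were lower and 15 higher, where 50.4% of all tested genes were lower. The median log2 fold change was 0.02, against -0.001 over all tested genes. The highest mean CPM were those of crx.S (log2 fold change 0.04) and crx.L (0.02), each with a standard error of 0.10. Named for their known role and after their values were seen, otx2.L had -0.07 (standard error 0.12), otx2.S 0.38 (standard error 0.21) and pitx1.L 0.08 (standard error 0.13). These genes are also active in brain, eye, pituitary or placodes, so their level in whole embryos is not that of the cement gland alone.

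Of genes for folding and translocation in the endoplasmic reticulum, 67 copies were tested, and 0 passed the FDR limit by edgeR, DESeq2 or limma-voom. Of all genes 0.0178%, 0.0463% and 0.0178% passed by these tools. At an unadjusted p under 0.05 by edgeR stood 0 lower and 4 higher copies, where 2.25% of all tested genes were lower and 2.14% higher at such a p, and the median log2 fold change was 0.01. The 4 copies, named for this after their values were seen, were the protein disulfide isomerases pdia5.S (0.30) and pdia4.L (0.19), the oxidase ero1b.L (0.62), which recharges these enzymes, and creb3l2.S (0.27), a membrane-bound transcription factor of the secretory pathway. The most abundant were canx.L, a lectin chaperone (log2 fold change -0.07, standard error 0.07), calr.S, its soluble counterpart (0.00, standard error 0.07), p4hb.L, a protein disulfide isomerase (-0.05, standard error 0.07) and hsp90b1.L, a chaperone of the Hsp90 family (-0.06, standard error 0.09). The summed level of the list was 9900 to 10300 CPM in 0.75X MMR and 9570 to 10600 CPM in 0.1X MMR.

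Of the list of secreted mucins and of goblet and small secretory cell genes, 14 copies were tested and 1, the gel-forming mucin gene muc2l.L, passed the FDR limit by edgeR, DESeq2 and limma-voom. Of all genes 0.0178%, 0.0463% and 0.0178% passed by these tools. The level of muc2l.L fell in 0.75X MMR by 1.35 on the log2 scale (SE 0.13, adjusted p = 0.00239 by edgeR). It was 872, 558 and 679 CPM in samples 1 to 3 of 0.75X MMR and 1670, 2040 and 1680 CPM in samples 1 to 3 of 0.1X MMR. Of the other copies 4 were lower and 9 higher, and the median of the list was 0.12. At an unadjusted p under 0.05 by edgeR stood 1 lower and 2 higher copies, where 2.25% of all tested genes were lower and 2.14% higher at such a p. Mucins entered the list by names beginning with muc and a digit, so LOC108715183, given below, is in neither the counts nor the sum. The summed level of the list was 2960 to 3340 CPM in 0.75X MMR and 4110 to 4800 CPM in 0.1X MMR, and its part in the levels of ag1 and agr2 was not tested. Within this sum muc2l.L alone had a mean of 703 CPM in 0.75X MMR and 1800 CPM in 0.1X MMR. Most of the gap was thus that of 1 gene and not of the list as a whole. How often such sums are apart over all genes was not computed. The epidermal lectin itln1.L, a product of goblet cells singled out here after its value was seen, had 2280 ± 119 CPM in 0.75X MMR and 2340 ± 151 CPM in 0.1X MMR (SD, n = 3 each). Sample 2 of 0.75X MMR was the lowest of all pools for muc2l.L, as it was for ag1.L, ag1.S and agr2.L. In all of these copies the pools of 0.75X MMR lay below those of 0.1X MMR, so the lowest had to be 1 of 3. How often it was sample 2 over all genes was not computed.

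Over the 6 samples the patterns of the 4 copies were set beside those of 16531 other genes (mean count at least 50) by Pearson's r of log2 CPM. Those most like ag1.S were megf10.L (0.992) and LOC108715183 (0.989), annotated as mucin-5AC. The mucin fell in 0.75X MMR (log2 fold change -1.20 with SE 0.15, adjusted p = 0.0181 by edgeR) and had 675 ± 165 CPM in 0.75X MMR and 1550 ± 199 CPM in 0.1X MMR (SD, n = 3 each). Its counts and those of muc2l.L had fractions that added up to whole numbers in all 6 samples, so these mucin genes shared reads and their differences are not separate measurements. Added together they had 1660, 1040 and 1430 CPM in samples 1 to 3 of 0.75X MMR and 3310, 3730 and 3010 CPM in samples 1 to 3 of 0.1X MMR. The closest to ag1.L were srsf2.S (0.997) and ntrk2.L (0.994), to agr2.L LOC108703833 (0.993), a histone H4 gene, and atg12.S (0.984), and to agr2.S colgalt2.S (0.997) and ppwd1.L (0.992). Pearson's r takes no account of the size of a difference. Apart from the mucin, the log2 fold changes of these genes lay between -0.38 (megf10.L) and -0.06 (srsf2.S), and none passed the FDR limit by edgeR. The points share library depth, and with 6 samples against this many genes the values are given as a description. The means of the media were not taken off before this ranking. The r values thus also carry the difference between the media that was known when the genes were picked.

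Markers of other cell types and tissues are given beside these values. Of all tested genes 50.4% were lower in 0.75X MMR. The FDR limit was passed by 0.0178% (edgeR), 0.0463% (DESeq2) and 0.0178% (limma-voom) of all genes. Of 14 copies of ionocyte markers 8 were lower and 6 higher, with 0 past the FDR limit by edgeR, DESeq2 or limma-voom and 6 at an unadjusted p under 0.05 by edgeR (4 lower and 2 higher), where 4.39% of all tested genes had such a p. Their summed level was 322 to 343 CPM in 0.75X MMR and 343 to 374 CPM in 0.1X MMR. Of 14 copies of multiciliated cell markers 1 was lower and 13 higher, with 0 past the limit by these tools and 1, a higher one, at an unadjusted p under 0.05. Their sum was 199 to 229 CPM in 0.75X MMR and 187 to 192 CPM in 0.1X MMR. These ranges did not overlap, but how often such a sum does so over all genes was not computed. Of 3 tested copies of hatching gland markers 3 were lower and 0 higher, with a median log2 fold change of -0.01. Of these 0 passed by these tools and 0 had an unadjusted p under 0.05. Their sum was 44.3 to 50.2 CPM in 0.75X MMR and 44.2 to 58.7 CPM in 0.1X MMR. The copy astl2b.L, singled out for this, was at 0 counts in every sample. Of 8 lens and eye copies 3 were lower and 5 higher, with 0 past the limit by these tools and 0 at an unadjusted p under 0.05, and the sum was 84.8 to 109 CPM in 0.75X MMR and 85.4 to 119 CPM in 0.1X MMR. Of 12 blood and liver copies 4 were lower and 8 higher, with 0 past the limit by these tools and 4 at an unadjusted p under 0.05 (1 lower and 3 higher). Their sum was 2270 to 2700 CPM in 0.75X MMR and 2570 to 2960 CPM in 0.1X MMR. Of 15 muscle copies 13 were lower and 2 higher, with a median log2 fold change of -0.08. Of 17 neural copies 10 were lower and 7 higher. In both lists 0 passed the limit by these tools and 0 had an unadjusted p under 0.05, and their sums are given above. The part of these cell types in the levels of ag1 and agr2 was not tested.

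Under 15 other settings the 4 copies kept a negative log2 fold change each time. With 1 pool left out at a time, 0 of the 4 copies passed the FDR limit in any of the 6 edgeR fits. Only 1 to 10 of all tested genes passed it in these fits, so a count of 0 among 4 says little. Of the copies, 3 or 4 had an unadjusted p under 0.05, as did 1068 to 1396 of the 27632 to 27773 genes tested. The log2 fold change of ag1.L was between -0.92 (without sample 1 of 0.75X MMR) and -0.46 (without sample 2 of 0.75X MMR). Which copies passed the FDR limit depended on the test. The copies passed it in 4 (ag1.S), 2 (ag1.L), 1 (agr2.L) and 0 (agr2.S) of 9 other settings that kept all samples. In the main edgeR test 0 passed. The pass of agr2.L and 1 of ag1.S came from limma on the deposited adjusted values, where 668 of 24661 genes passed. A pass each of ag1.L and ag1.S came from the setting added after seeing the data (26 of 28075 genes). The rest came without a filter (34 of 35640 genes) and, for ag1.S, by DESeq2 (13 of 28073 genes).

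**Figure D5:**
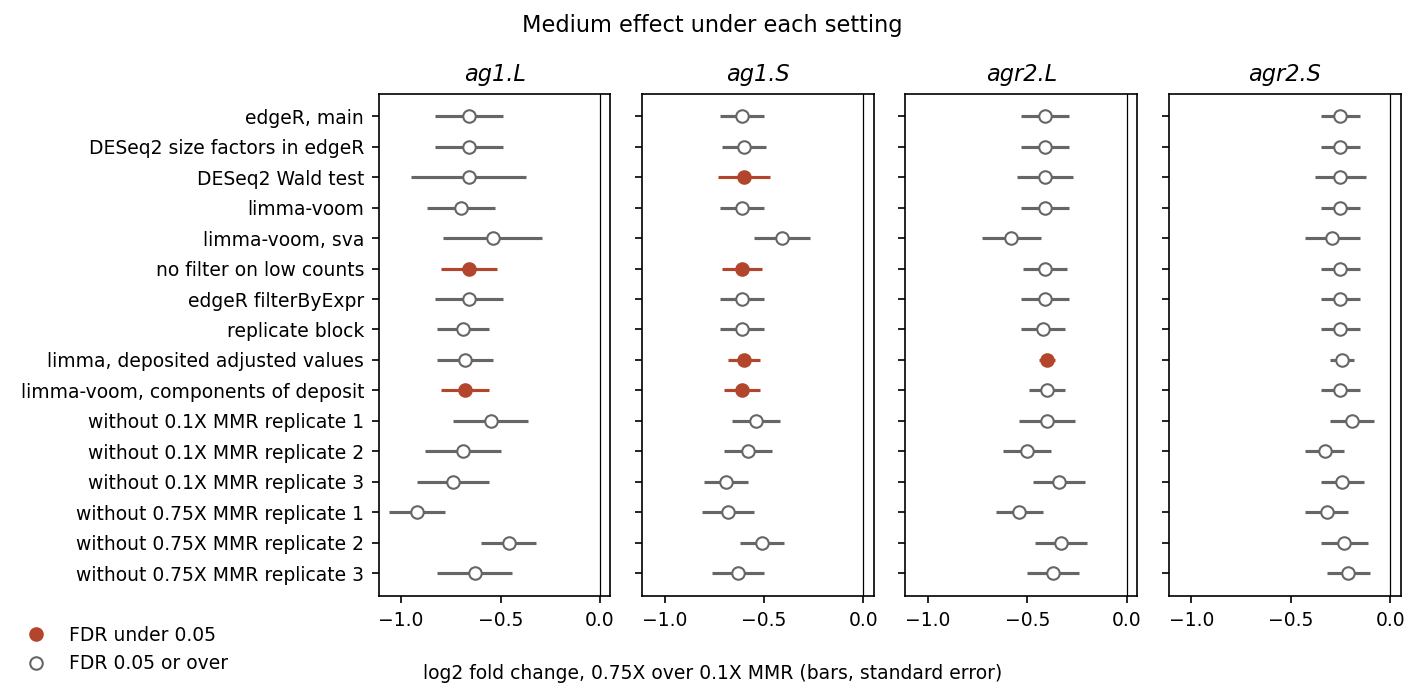
Log2 fold change of each copy (horizontal axis, 0.75X MMR over 0.1X MMR; bars are standard errors) under the main edgeR test and 15 other settings (rows). Filled red points have an FDR under 0.05. They occur for ag1.L in 2 rows, for ag1.S in 4, for agr2.L in 1 and for agr2.S in 0, and every point lies below 0. In the row of the deposited adjusted values 668 of 24661 genes passed, against 5 of 28075 in the main test. The row with the components of the deposit was added after seeing the data.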

How the data were processed

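The 4 copies and the gene lists were chosen with earlier results of these data known. The authors ran fastp for trimming and STAR (2 passes) for alignment to the assembly Xenopus_laevis_v10.1, then RSEM for expected counts per gene, deposited without normalization (42.5% of values above 0 are not whole). They also deposited log2 CPM of 24661 genes, made with TMM and voom, from which surrogate variables had been taken out. Versions of these tools are not given in the sources used here, and 0 columns lacked a sample.

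Counts were rounded. A gene entered the test if 3 samples or more had a CPM above 0.6. The test was that of edgeR 4.0.16 (TMM, quasi-likelihood, medium as the only term, Benjamini-Hochberg over all tested genes, FDR limit 0.05), in R 4.3.3. CPM in the text uses TMM library sizes. Standard errors are the log2 fold change over the root of F, and intervals are from limma-voom (limma 3.58.1). The depth puts 3 counts at 0.428 to 0.603 CPM, counting error only. Alternatives were DESeq2 1.42.0, DESeq2 size factors, other filters, limma-voom without and with surrogate variables (sva 3.50.0), the adjusted values, a replicate block and leaving out each sample. One further setting, limma-voom with the 2 components that the authors' adjustment removed, was added after seeing the data. The edgeR, limma-voom and DESeq2 fits were tested on simulated data. Named genes are the 4 copies, the 2 genes most alike to each, and of each list those past the limit or up to 4 of the highest mean, of which some are not reported here. Outside this rule stand the overlapping and neighbouring genes on the chromosome and the genes that the text singles out after their values were seen. Planned comparisons of protein and promoter sequence were not made, and sequences were not analysed here.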

Additional observations from a re-analysis of the deposited data

How the results depend on the processing

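By edgeR with all samples, 5 genes passed the FDR limit between the media. The number was 13 by DESeq2, 34 without a filter on low counts, 26 by limma-voom with the 2 components removed in the deposited values, 668 by limma on the deposited adjusted log2 CPM, and 0 by limma-voom with 2 surrogate variables from sva (1098 genes at an unadjusted p under 0.05). The fit to the adjusted values does not count the removed components against its degrees of freedom. With 1 sample left out the number was between 1 (without sample 1 of 0.1X MMR) and 10 (without sample 2 of 0.75X MMR), with 2 without sample 1 and 3 without sample 3 of 0.75X MMR and 4 otherwise.

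For ag1.L the log2 fold change was -0.66 (adjusted p = 0.0477) in edgeR without a filter on low counts and -0.68 (adjusted p = 0.0465) by limma-voom with the removed components. For ag1.S it was -0.60 (adjusted p = 0.00542) by DESeq2, -0.61 (adjusted p = 0.0094) without a filter, -0.60 (adjusted p = 0.0326) by limma on the adjusted values and -0.61 (adjusted p = 0.0199) by limma-voom with the removed components. For agr2.L it was -0.40 (adjusted p = 0.0186) by limma on the adjusted values. Over the 9 settings with all samples the adjusted p of agr2.S was 0.117 to 1. With sva's surrogate variables the log2 fold changes were -0.54 (ag1.L), -0.41 (ag1.S), -0.58 (agr2.L) and -0.29 (agr2.S), and 0 of 4 passed. The cause of these moves was not tested. Leaving out 1 sample gave -0.92 to -0.46 for ag1.L, -0.69 to -0.51 for ag1.S, -0.54 to -0.33 for agr2.L and -0.33 to -0.19 for agr2.S, and for the added copies -0.80 to -0.48 (ag1) and -0.43 to -0.29 (agr2). The difference in L share was -4.41 to 0.386 percentage points for ag1 (reversed at 0.386 without sample 2 of 0.75X MMR) and -3.83 to -1.83 for agr2, and the difference in the log2 ratio of ag1 to agr2 was -0.45 to -0.20.

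Over all tested genes, samples of the same number did not deviate together (correlation -0.024, -0.032 and -0.103 for numbers 1 to 3). Of the 6 samples 0 were most like their own number. With 3 pools for each medium this cannot show whether samples of the same number share a batch. With the replicate block 2 genes passed the FDR limit, and the log2 fold changes were -0.69 (ag1.L), -0.61 (ag1.S), -0.42 (agr2.L) and -0.25 (agr2.S), with 0 of 4 past it. 

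In genes averaging at least 50 counts the median SE on the log2 scale was 0.12, and common biological variation was 9.53%. No setting varied the depth.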
